A study of Mus musculus with 16 samples.

Results

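The genes described here encode 7 subunits of the GABA-A receptor: the alpha subunits Gabra2, Gabra3, Gabra4 and Gabra5, the beta subunits Gabrb1 and Gabrb2, and the delta subunit Gabrd. They were taken by gene symbol from the 24972 genes measured by bulk RNA-seq in 16 libraries of mouse dorsal hippocampus. Tissue labelled CA1, CA3 or dentate gyrus (DG) had been microdissected from adult ArcCreERT2::eYFPflx mice of both sexes on a C57BL/6 background, aged 3 to 4 months, and the pieces of one animal were pooled by subregion. In these mice the Arc promoter drives a tamoxifen-inducible Cre, and every animal of both groups carried these alleles. Trained mice had learned to avoid a shock zone on a rotating arena (active place avoidance), untrained mice had been on the same arena without shock, and tissue was taken an hour after a retention test. There were 3 trained libraries for every subregion, and the untrained ones numbered 3 for CA1, 2 for CA3 and 2 for DG.

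GABA-A receptors are chloride channels opened by GABA and carry most fast inhibition in the hippocampus. Each channel is assembled from several subunits, usually alpha and beta subunits joined by a gamma or a delta subunit, and GABA binds where an alpha meets a beta subunit. Receptors with alpha2 and a gamma subunit are found at synapses and at the axon initial segment of pyramidal cells, whereas alpha5 receptors and receptors of alpha4 with delta lie largely outside synapses, where they carry tonic inhibition.

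Gabra2 was the subunit gene that separated trained from untrained mice most clearly. It was lower after training in CA1, by a fold of 0.63 (back-transformed from the difference in mean log2(value + 2)), and in all subregions combined. Gabrb2 was lower by a smaller amount in the combined comparison. The other 5 genes passed the test in no comparison of training. All values are estimated read counts that the authors had normalized between libraries, called normalized counts below, and differences were tested with limma on log2(value + 2) with Benjamini-Hochberg adjustment over all genes tested.

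The alpha genes are related in sequence, so reads from a shared stretch could be assigned to the wrong member. Over the coding sequence, Gabra2 was 72.1% identical to Gabra3, 69.3% to Gabra5 and 65.3% to Gabra4, Gabrb1 was 71.9% identical to Gabrb2, and Gabrd was 52.4% to 58.6% identical to the other 6. The stretch of 60 coding bases at which the 4 alpha genes are most alike is given from the GENCODE annotation of GRCm38, because misassignment would be most likely there. It lies in exon 9 of Gabra2 (chr5:70973491-70973550, minus strand), exon 9 of Gabra3 (chrX:72445250-72445309, minus strand), exon 8 of Gabra4 (chr5:71623978-71624037, minus strand) and exon 9 of Gabra5 (chr7:57413661-57413720, minus strand). Capitals mark bases that differ from Gabra2.
Gabra2: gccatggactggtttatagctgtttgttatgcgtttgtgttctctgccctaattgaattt
Gabra3: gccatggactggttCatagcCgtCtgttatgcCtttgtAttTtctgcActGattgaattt
Gabra4: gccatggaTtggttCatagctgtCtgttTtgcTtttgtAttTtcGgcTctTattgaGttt
Gabra5: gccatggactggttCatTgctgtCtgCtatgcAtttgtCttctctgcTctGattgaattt
Even here Gabra3 and Gabra5 differed from Gabra2 at 8 bases and Gabra4 at 11. Of the 7524 sequences of 31 bases in the exons of Gabra2, 4 also occurred in another GABA-A subunit gene and 1.28% in any other gene. For the other members the share found in any other gene lay between 0% and 4.21%.

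The labels of the subregions were checked against marker genes before the members were compared. The markers separated the labels only in part. Of the 17 markers of CA1 pyramidal, CA3 pyramidal and DG granule cells, 0 passed limma's adjusted p of 0.05 between any pair of subregion labels. In CA1 against CA3, CA1 against DG and CA3 against DG, only 0.211%, 1.95% and 0% of 14673 genes passed. In the same order, 7, 5 and 0 of the markers had an unadjusted p under 0.05, against 8.72%, 17.1% and 4.87% of all genes. All 5 CA1 pyramidal markers had positive differences in CA1 against CA3 (median log2 difference 0.99), and 3 of them (Wfs1, Pou3f1 and Man1a) were higher in every CA1 than in every CA3 library. Markers of CA3 pyramidal and granule cells overlapped between all labels. Prox1, a transcription factor of granule cells, had a normalized count between 2690 and 4786 over the 16 libraries, with a mean of 3536 under the CA1 label, 3648 under CA3 and 3665 under DG. The summed count of 6 granule cell markers was between 8581 and 14493 in every library. The sum of 5 CA1 pyramidal markers was 2676 to 4199 in the untrained CA1 libraries, 1378 to 1762 in the trained CA1 libraries and 856 to 1649 in all others. The subregion names below are therefore those of the labels.

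**Figure D1:**
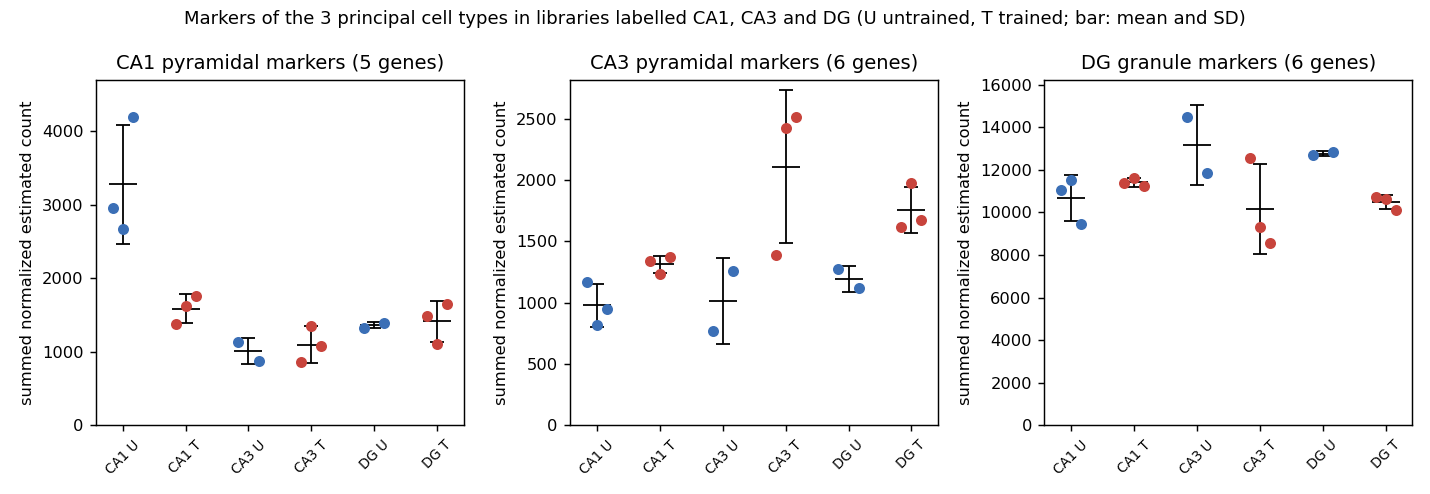
Summed normalized estimated counts (vertical axis) of CA1 pyramidal, CA3 pyramidal and DG granule cell markers in each library, grouped by subregion label and training (U untrained, T trained), with bars for the mean and SD. The CA1 marker sum is highest in the 3 untrained CA1 libraries (2676 to 4199), while the trained CA1 libraries (1378 to 1762) lie above CA3 (856 to 1355) and overlap DG, and the granule cell sum is at least 8581 under every label.

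Libraries also differed in ways that follow training. Xist, the RNA that silences one X chromosome in female cells, was between 7601 and 19592 in all 9 trained libraries and between 25.5 and 52.4 in 6 of the 7 untrained libraries, although the methods place both sexes in each group. The remaining library, labelled CA3 untrained replicate 1, had an Xist count of 10587, although the CA1 and DG libraries of the same number had 26.1 and 25.5. Whether these 3 libraries come from one animal was not tested, and untrained animal 1 is used below for the libraries that carry this number. The Y-linked gene Ddx3y had a count of 448 to 553 in the 6 untrained libraries with low Xist. It had 201 in CA3 untrained replicate 1 and 1.66 to 255 in the trained libraries, so some libraries held both transcripts. Whether these held tissue of both sexes was not tested. In 7 libraries (the trained CA1 libraries, 2 trained CA3 libraries and the untrained DG libraries) between 7567 and 9759 genes were listed at 0, and in the other 9 between 3124 and 5944. Sex-linked transcripts, the class of genes at 0 and training split the CA1 libraries in the same way, and likewise the DG libraries, so their parts cannot be told apart within these subregions.

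Gabra2 encodes the alpha2 subunit. In CA1 its normalized counts were 1271, 1526 and 1436 in the untrained and 907, 847 and 912 in the trained libraries. In CA3 they were 1131 and 1584 in untrained and 889, 933 and 772 in trained mice. In DG they were 868 and 728 in untrained and 721, 793 and 725 in trained mice. Every trained library was below every untrained library in CA1 and in CA3, whereas the groups overlapped in DG. The untrained CA1 and CA3 libraries were the only ones above 1000. After training, the 9 libraries of the 3 subregions all lay between 721 and 933.

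**Figure D2:**
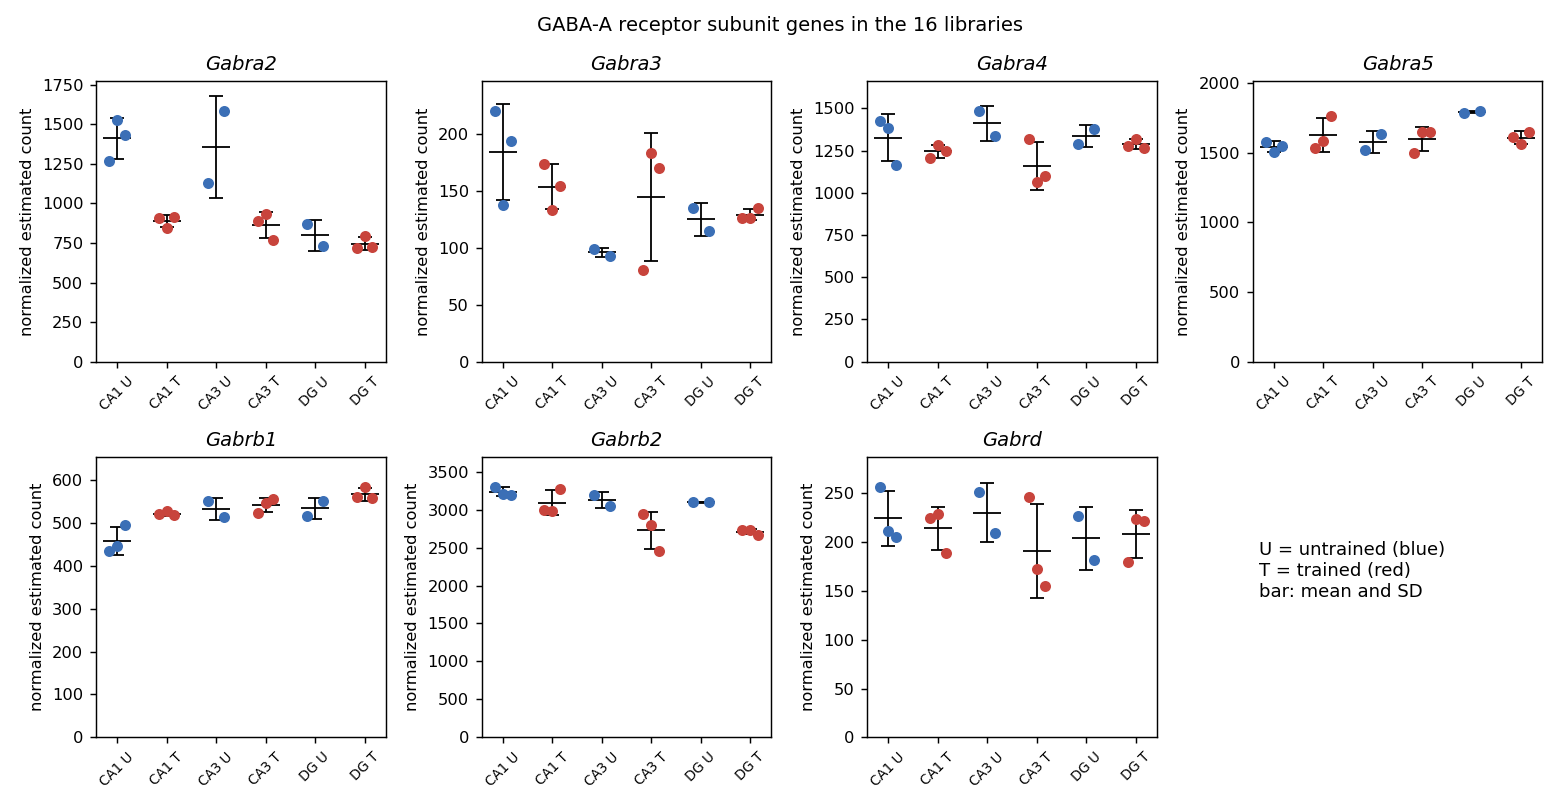
Normalized estimated counts (vertical axis, from 0) of the 7 subunit genes in each of the 16 libraries by subregion label and training (U untrained, blue; T trained, red), with bars for the mean and SD of each group. Gabra2 is between 1131 and 1584 in untrained CA1 and CA3 and between 721 and 933 in trained libraries, and its groups do not overlap in CA1 and CA3.

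The log2 difference of Gabra2 between trained and untrained CA1 was -0.66 (standard error 0.070, limma adjusted p = 1.78e-05). It was the only member of 7 called in CA1, where 5.23% of 13588 genes were called and 1.7% were called lower. This call was kept under all 14 alternatives, with differences from -0.74 to -0.60. These held no covariate for sex-linked transcripts or genes at 0, which split the CA1 libraries as training does. The 5 CA1 pyramidal markers had negative differences in the same comparison (2 called, median -0.88). Of 6 CA3 pyramidal markers 3 were higher and 1 lower, of 6 granule cell markers 1 was higher and 1 lower, 2 of 3 tested immature neuron markers were lower, and 1 of 5 astrocyte markers was lower. The part of these markers in the Gabra2 difference was not tested. In bulk tissue, fewer cells of a type and less RNA per cell cannot be told apart.

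In CA3 the log2 difference of Gabra2 was of similar size, -0.63, but with a larger standard error of 0.15 and a limma adjusted p of 0.105. By limma 0 of 7 members were called in CA3, against 0.852% of 13848 genes, and 3 (Gabra2, Gabra4 and Gabrb2) had an unadjusted p under 0.05, against 15.8% of all genes. The size rested on which untrained library was used, since leaving out one or the other gave differences of -0.88 and -0.39. Each of these fits has a single untrained library, assumed to vary like the trained ones. Over the 13 alternatives the limma adjusted p ran from 0.00305 to 0.277, and 3 alternatives called Gabra2. The CA1 marker sum was 880 and 1130.1 in untrained and 856 to 1355 in trained CA3, so it did not separate these groups. Sums of 4 other lists did separate them. Untrained against trained CA3 had 809 and 1120.2 against 236 to 317 for 5 choroid plexus markers, and 852 and 865 against 475 to 690.2 for 4 immature neuron markers. For 5 astrocyte markers the sums were 9862 and 10891 against 8688 to 9640.2, and for 6 CA3 pyramidal markers they were 768 and 1259.9 against 1389.5 to 2517. The part of these in the Gabra2 difference was not tested.

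In DG the difference of Gabra2 was -0.09 (standard error 0.090, limma adjusted p = 0.620, 95% confidence interval -0.28 to 0.10), and limma called 0 of 7 members, against 3.39% of 13935 genes, with 2 (Gabra5 and Gabrb2) at an unadjusted p under 0.05, against 19.5% of all genes. Among markers in DG, 2 of 6 of granule cells and 2 of 5 of thalamus were called lower after training. Untrained against trained sums were 12689 and 12834 against 10112 to 10715 (granule) and 1008 and 1072 against 743 to 787 (thalamus). Sums of CA3 pyramidal and interneuron markers were higher in trained DG without overlap, those of oligodendrocyte and immature neuron markers lower. The part of these in the DG differences was not tested. Whether the training effect on Gabra2 differed between subregions was tested as an interaction. The effect in CA1 minus that in DG was -0.57 (standard error 0.16, limma adjusted p = 0.0603), and the effect in CA3 minus that in DG was -0.54 (standard error 0.17, limma adjusted p = 0.221). The effects in CA1 and CA3 differed by -0.03 (standard error 0.16, limma adjusted p = 0.985). By limma 0 of 7 members passed an interaction test, where 2.75%, 0.164% and 0.0273% of 14673 genes did in CA1 against DG, CA3 against DG and CA1 against CA3, and 2, 1 and 0 members had an unadjusted p under 0.05, against 17.8%, 11.7% and 6.71% of all genes. The larger negative effect in CA1 than in DG passed the threshold when the library labelled CA3 untrained replicate 1 was left out (limma adjusted p = 0.0212), and over all alternatives its adjusted p ran from 0.0126 to 0.725.

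Over all subregions the log2 difference of Gabra2 was -0.48 (standard error 0.094, limma adjusted p = 0.00512), with the 16 libraries treated as independent although several came from one animal. Together with Gabrb2, 2 of 7 members were called in the combined comparison, both lower, against 10.3% of 14673 genes in either direction and 4.06% lower. Gabra2 remained called with each animal left out and with the number of genes at 0 as a covariate. With a sex-linked covariate the difference was -0.43, its standard error rose to 0.24 and the limma adjusted p was 0.515. In the combined comparison 3 of 4 markers of immature neurons, 2 of 5 of astrocytes and 1 of 6 of granule cells (Lct) were also lower, 1 of 7 of interneurons (Slc32a1) was higher, and of 6 CA3 pyramidal markers 3 were higher and 1 lower. The part of these in the Gabra2 difference was not tested.

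**Figure D3:**
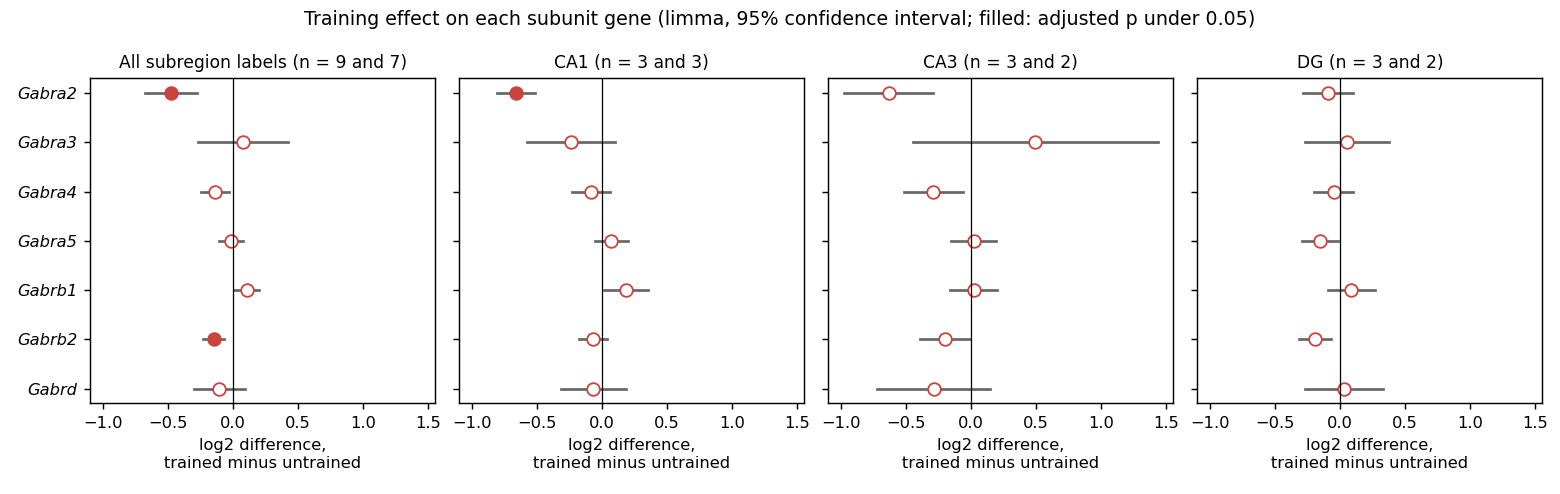
Log2 difference in log2(normalized count + 2) between trained and untrained libraries (horizontal axis) for the 7 subunit genes over all subregion labels and in CA1, CA3 and DG, with 95% confidence intervals from limma; filled points have an adjusted p under 0.05. Gabra2 is filled over all subregions (-0.48) and in CA1 (-0.66), Gabrb2 only over all subregions (-0.15).

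The ratio of Gabra2 to Gabra5 in the same library does not depend on the scaling between libraries. Because Gabra5 varied little, this ratio largely restates the Gabra2 counts above and is not separate support. The ratio of the 2 normalized counts was 0.805, 1.01 and 0.926 in untrained CA1 and 0.593, 0.536 and 0.517 in trained CA1. It was 0.745 and 0.971 in untrained CA3 and between 0.468 and 0.592 in trained CA3. In DG it was 0.486 and 0.405 in untrained and between 0.439 and 0.508 in trained mice. The groups did not overlap in CA1 and CA3 and overlapped in DG, which shows an unequal change of Gabra2 and Gabra5 and not which of them changed. Among the 9 libraries with few genes at 0, Gabra2 was 1131 and 1584 in untrained CA3 and 772 in the single trained CA3 library. In the same class it was 1271 to 1526 in untrained CA1, which had no trained counterpart.

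**Figure D4:**
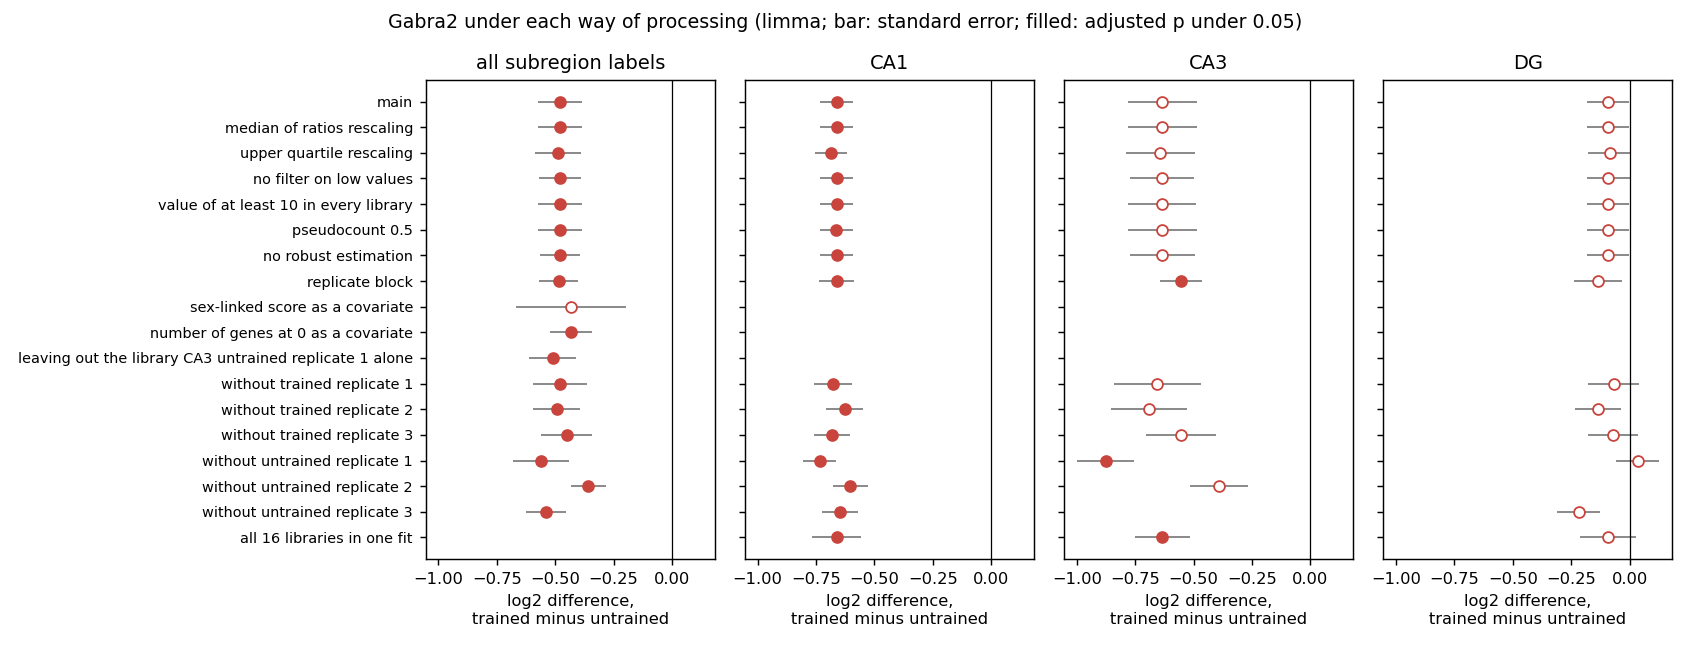
Log2 difference of Gabra2 between trained and untrained libraries (horizontal axis) under each way of processing the values (rows), over all subregion labels and in CA1, CA3 and DG, with bars for the standard error; filled points have a limma adjusted p under 0.05. In CA1 every point is filled and lies between -0.74 and -0.60, in CA3 3 alternatives are filled, and in DG none is. Covariates were fitted only over all subregions.

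Gabra3 encodes the alpha3 subunit, which is known best from monoaminergic neurons. Its normalized counts were 220.2, 138 and 194 in untrained and 174, 134 and 154 in trained CA1. They were 98.9 and 93.1 in untrained and 80.5, 183 and 170.5 in trained CA3. In DG they were 135 and 115 in untrained and 127, 126 and 135 in trained mice. The groups overlapped in every subregion, and the trained CA3 libraries split into one low and a pair of higher values. The log2 difference was 0.08 over all subregions (95% confidence interval -0.27 to 0.42, limma adjusted p = 0.814), and from -0.036 to 0.49 over the 16 alternatives. In CA3 it was 0.50 (limma adjusted p = 0.576), which became 0.87 (adjusted p = 0.00687) without trained replicate 1.

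Gabra4 encodes the alpha4 subunit, the usual partner of delta in granule cells. Its normalized counts in CA1 were 1426, 1382 and 1167 in untrained and 1206, 1283 and 1249 in trained mice. In CA3 they were 1484 and 1339 in untrained and 1318, 1061 and 1096 in trained mice, with no overlap. In DG they were 1288 and 1379.8 in untrained and 1279, 1321 and 1264 in trained mice. The log2 difference over all subregions was -0.14 (95% confidence interval -0.25 to -0.03, limma adjusted p = 0.105), and without untrained replicate 3 it was -0.18. Over the 16 alternatives it ran from -0.35 to -0.10, and 1 of them called it. In CA3 alone it was -0.29 (limma adjusted p = 0.206), and without trained replicate 1 it was -0.39 (limma adjusted p = 0.0247).

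Gabra5 encodes the alpha5 subunit, which is enriched in hippocampal pyramidal cells. In CA1 its normalized counts were 1578, 1506 and 1550.1 in untrained and 1531, 1580.5 and 1763 in trained mice. In CA3 they were 1519 and 1631 in untrained and 1501, 1645 and 1649 in trained mice. The untrained DG libraries, at 1786 and 1799, were the highest of all 16 and lay above the trained DG libraries at 1616, 1560.3 and 1651. The log2 difference in DG was -0.16 (standard error 0.065, limma adjusted p = 0.195), and over all subregions it was -0.01 (95% confidence interval -0.10 to 0.08, limma adjusted p = 0.873). The coefficient of variation over the 16 libraries was 5.97% for Gabra5, the lowest of the 7 members, against 29.3% for Gabra2.

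Gabrb1 and Gabrb2 encode beta subunits, which complete the GABA binding site. Gabrb1 had normalized counts of 434, 447 and 496 in untrained CA1 and 520.5, 528 and 518 in trained CA1. In CA3 it had 552 and 515 in untrained and 523, 546 and 556 in trained mice, and in DG 517 and 552 in untrained and 559.9, 585 and 558 in trained mice. Trained libraries were above untrained ones in CA1 and DG without overlap. The log2 difference was 0.19 in CA1 (standard error 0.080, limma adjusted p = 0.205) and 0.11 over all subregions (95% confidence interval 0.01 to 0.20, limma adjusted p = 0.147). Gabrb1 did not pass the test under any of the 16 alternatives of the combined comparison, over which its difference ran from 0.0038 to 0.13.

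Gabrb2, the most abundant beta subunit here per length of transcript among the members, had normalized counts of 3301, 3207 and 3198 in untrained CA1 and 3000.1, 2985 and 3277 in trained CA1. In CA3 it had 3196 and 3052 in untrained and 2937, 2791 and 2458 in trained mice, and in DG 3101 and 3095 in untrained and 2730.0, 2731 and 2670.4 in trained mice. The groups overlapped in CA1 through the trained replicate 3 and did not overlap in CA3 or DG. The combined log2 difference was -0.15 (standard error 0.040, limma adjusted p = 0.0198). That call was lost without the library labelled CA3 untrained replicate 1 (limma adjusted p = 0.0573), without trained animal 2 (0.0962) or untrained animal 1 (0.183), and with the sex-linked covariate (0.276), while the difference stayed between -0.25 and -0.12. In DG alone it was -0.19 (standard error 0.059, limma adjusted p = 0.0786). In CA3 alone it was -0.20 (standard error 0.087, limma adjusted p = 0.302).

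Gabrd encodes the delta subunit of extrasynaptic receptors. Its normalized counts were 257, 212 and 205 in untrained and 224, 229 and 189 in trained CA1. They were 252 and 209 in untrained and 246, 172 and 155 in trained CA3, and 227 and 181 in untrained and 179.9, 223 and 222 in trained DG. The groups overlapped everywhere, and the log2 difference over all subregions was -0.10 (95% confidence interval -0.30 to 0.09, limma adjusted p = 0.527). Over the 16 alternatives it ran from -0.37 to 0.026.

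Taking the groups by overlap alone, 2 of 7 members did not overlap between trained and untrained CA1 (Gabra2 and Gabrb1), against 24% of all genes tested. In CA3 these were 3 of 7 (Gabra2, Gabra4 and Gabrb2), against 33.9%, and in DG 3 of 7 (Gabra5, Gabrb1 and Gabrb2), against 35.6%. These shares were near those of all genes. The median log2 difference of the 7 members was -0.10 over all subregions, -0.07 in CA1, -0.20 in CA3 and -0.05 in DG, while the medians of all genes tested lay between -0.0091 and 0.00083.

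Between subregion labels, with training as a term, Gabra2 was higher in CA1 than in DG, with a log2 difference of 0.50 (standard error 0.11, limma adjusted p = 0.0344). It was the only one of 7 members called in that contrast, where 1.95% of 14673 genes were called, and the call was lost when any animal other than untrained animal 2 was left out (limma adjusted p from 0.0700 to 0.103), while the difference in these fits stayed between 0.38 and 0.59. The groups overlapped, since the trained CA1 libraries (847 to 912) reached into the range of DG (721 to 868). Between CA3 and DG Gabra2 differed by 0.43 (standard error 0.12, limma adjusted p = 0.945). In that contrast limma called 0 of 14673 genes (0%), and 715 (4.87%), of which 1 was a member (Gabra2), had an unadjusted p under 0.05. Between CA1 and CA3 it differed by 0.07 (standard error 0.11, limma adjusted p = 0.930), and limma called 0 of 7 members against 0.211% of all genes, with 3 at an unadjusted p under 0.05, against 8.72% of all genes. Gabrb1 was lower in CA1 than in DG by a log2 difference of -0.17 (limma adjusted p = 0.106), and Gabra3 differed by 0.49 between CA1 and CA3 (limma adjusted p = 0.435).

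Levels of different genes were compared as normalized counts per kb of exon. Gabra5 was at 544 ± 32.4 (SD, n = 16 libraries) and Gabrb2 at 469 ± 38.5, followed by Gabra4 at 211 ± 18.5, Gabra2 at 131 ± 38.4 and Gabrd at 73.5 ± 10.2. Gabrb1 at 38.0 ± 2.9 and Gabra3 at 36.3 ± 9.7 were lowest. Each gene was above the next in 16 of 16 libraries, except that Gabrb1 was above Gabra3 in 9 of 16, so the order of this pair was not resolved. The order of the leading pair depended on the length used: per kb of the longest transcript, Gabrb2 at 748 was above Gabra5 at 605 in 15 of 16 libraries.

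**Figure D5:**
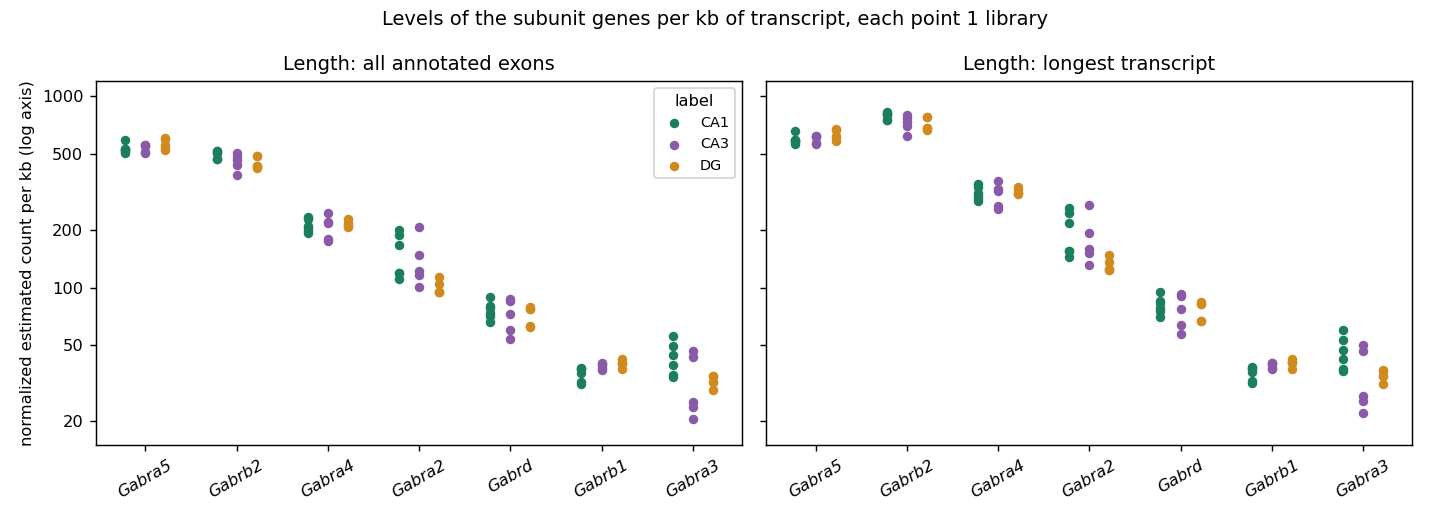
Normalized estimated counts per kb (vertical log axis) of the 7 subunit genes in each library, coloured by subregion label, with the gene length taken as all annotated exons (left) or the longest transcript (right). Gabra5 and Gabrb2 lead and exchange places between the lengths, and Gabra2 has the widest spread of the genes above 100 per kb.

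Several members lie next to other subunit genes. On GRCm38, Gabra2 (chr5:70957597-71095849, minus strand) is followed by Gabra4 (chr5:71569749-71658308, minus strand) and Gabrb1 (chr5:71658113-72149037, plus strand), with 1 coding gene between Gabra2 and Gabra4. Gabra4 and Gabrb1 start head to head and share 46 exonic bases on opposite strands, 0.756% of the exonic bases of Gabra4. Because the sources used here do not state that counting used the strand, reads from these bases cannot be assigned to either gene. Gabra5 lies at chr7:57407672-57510059 (minus strand), Gabrb2 at chr11:42419757-42629028, Gabrd at chr4:155384980-155398112 and Gabra3 at chrX:72432681-72656848. The neighbours Gabra4 and Gabrb1 had combined log2 differences of -0.14 and 0.11, neither of which passed the test.

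Of the other GABA-A subunit genes, the gamma subunit genes Gabrg3 and Gabrg1 had mean normalized counts of 205 and 123. Their combined log2 differences were -0.16 for Gabrg3 (limma adjusted p = 0.176) and 0.02 for Gabrg1 (limma adjusted p = 0.925). In DG the trained libraries had more Gabrg1 without overlap, at a log2 difference of 0.46 (limma adjusted p = 0.121).

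Of 21 measured genes for anchoring and trafficking of GABA-A receptors, trained libraries had higher counts of 4 and lower counts of 2 in the combined comparison, where 10.3% of all genes were called. The higher ones included Iqsec3, a gephyrin-binding exchange factor of inhibitory synapses, at 0.40 (limma adjusted p = 0.000239), and Hap1, which takes part in receptor transport, at 0.31 (limma adjusted p = 0.00121). The others, Insyn1 at 0.24 and Clptm1 at 0.21, are named because of the small count. The lower ones were Gabarap at -0.22 (limma adjusted p = 0.0154) and Trak2 at -0.13 (limma adjusted p = 0.0367). Once the sex-linked covariate was in the fit, limma called 0 of all 14673 genes in the combined comparison (1702 at an unadjusted p under 0.05), so none of these 6 combined calls was kept. The differences were then 0.43 for Iqsec3, 0.24 for Hap1, 0.18 for Clptm1, 0.031 for Insyn1 and -0.035 for Trak2, and Gabarap turned to 0.011. Leaving out single animals also ended the combined calls of Clptm1, Gabarap, Insyn1 and Trak2 in 4, 4, 2 and 6 of 6 cases, and that of Hap1 and Iqsec3 in none. In CA1, where 5.23% of all genes were called, 3 of 21 were higher, Hap1 by 0.49, Iqsec3 by 0.41 and Insyn1 by 0.35. The alternatives within a subregion held no covariate. In CA3, where 0.852% of all genes were called, 2 of 21 were higher, Iqsec3 by 0.66 (limma adjusted p = 0.00497) and Nlgn2, an adhesion protein of inhibitory synapses, by 0.37 (limma adjusted p = 0.0385). In DG Shisa7, an auxiliary protein of GABA-A receptors, was lower by a log2 difference of -0.32 (limma adjusted p = 0.0370). The 3 CA1 calls were kept in all 14 alternatives, that of Iqsec3 in CA3 was lost without trained animal 2 or untrained animal 2, and those of Nlgn2 and Shisa7 were lost in 5 and 6 of 13, with a limma adjusted p of up to 0.277 and 0.173. The training effect on Iqsec3 passed between CA3 and DG (0.51, limma adjusted p = 0.0346), but this call was lost in 10 of 16 alternatives, among them the number of genes at 0 as a covariate (limma adjusted p = 0.365) and the removal of any animal but untrained animal 3. The median of the 21 was 0.09, 0.05, 0.05 and 0.02 in the combined comparison, CA1, CA3 and DG.

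Among 7 genes of GABA synthesis, transport and breakdown, 1 was called in the combined comparison, where 10.3% of all genes were. It was the vesicular GABA transporter Slc32a1, higher at 0.35 (limma adjusted p = 0.00489). Within CA1, CA3 and DG 0 passed, where 5.23%, 0.852% and 3.39% of all genes did. There 1, 2 and 2 of the 7 had an unadjusted p under 0.05, against 18.9%, 15.8% and 19.5% of all genes. Of the 2 GABA-B receptor genes, Gabbr2 was higher in the combined comparison at 0.16 (limma adjusted p = 0.0382) and in CA1 at 0.31 (limma adjusted p = 0.000559), and its training effect passed between CA1 and DG (0.36, limma adjusted p = 0.0350). The last call was lost in 7 of 16 alternatives, among them the number of genes at 0 as a covariate (limma adjusted p = 0.841) and the removal of any animal but untrained animal 1. The CA1 call was kept in all 14 alternatives, which held no covariate. The combined calls of Slc32a1 and Gabbr2 were lost in 2 and 8 of 16, including the sex-linked covariate, and that of Slc32a1 also without untrained animal 1. With that covariate the difference was 0.34 for Slc32a1 and 0.050 for Gabbr2. Of the 2 chloride transporter genes, which set the direction of the current through GABA-A receptors, 0 passed limma's test or had an unadjusted p under 0.05 in any comparison of training.

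The genes whose pattern over the 16 libraries was most like that of each member were found as the smallest root mean square (RMS) difference of centred log2 values, as a description. For Gabra2 these were Tdp1, Frem2 and Thbd, at 0.22 to 0.23, against a standard deviation of Gabra2 of 0.38 and a median of 0.43 over all genes. For Gabrb2 they were Atxn1, Slitrk3 and Ppp1r9a, at 0.045 to 0.051 against a standard deviation of 0.12. For Gabra5 they were Plcb1, Ina and Ppp2r5c, at 0.046 to 0.054. The nearest genes were Pik3cb, Pdp1 and Pitpnc1 for Gabra4, Pla2g7, Eif3c and Slc25a11 for Gabrb1, and Chst15, Cnih3 and Sp4 for Gabrd. No other member was among the 3 nearest genes of any member.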

How the data were processed

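Dorsal hippocampal tissue labelled CA1, CA3 or DG gave 16 libraries (9 trained, 7 untrained). Per the labels and the methods, the authors demultiplexed with bcl2fastq 2.20, trimmed with Trim Galore (named in the labels only), aligned with STAR, quantified with Salmon and normalized between libraries. The build is GRCm38 in the labels, while the methods write MM10 together with GRCm39. The counts are listed by gene symbol, and all coordinates here come from the GENCODE annotation of GRCm38. The deposited signal values are therefore normalized estimated counts, not whole numbers, and each library sums to between 7607326 and 7984931, so the sequencing depth is unknown and no counting interval is given. Whether counting was stranded is not given in the sources used here. The labels name polyA RNA and a kit that depletes rRNA.

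The values were tested with limma 3.58.1 in R 4.3.3 on log2(value + 2). The prior variance followed the mean and was estimated robustly, and p-values were adjusted by Benjamini-Hochberg over all genes tested. Fold changes are on that scale, which understates changes of low genes. Genes needed a value of at least 10 in as many libraries as the smallest group of the fit, and all 7 members passed in every fit. Training was compared within each subregion and over all libraries with the subregion as a term, subregions with training as a term, and interactions in one fit of 6 groups. The test was checked on simulated data.

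Libraries with the same training group and number were treated as one animal, as labelled, although Xist differed between those of untrained number 1. Their deviations from the group means had correlations of -0.108 to 0.0921 across genes (14 pairs). The members and gene lists were chosen with earlier results of these data known. Named genes were all members, other subunits with a mean of at least 10, up to 3 higher and 3 lower partner genes per training comparison, and the 3 genes nearest in pattern to each member. Some genes that this rule takes are not reported here. Alternatives were other scalings, filters and a pseudocount of 0.5, no robust estimation, covariates, a replicate block, one fit of all libraries and leaving out animals. Covariates were not fitted within a subregion.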

Additional observations from a re-analysis of the deposited data

How the results depend on the processing

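The depth behind the deposited values is unknown, groups hold 2 or 3 libraries, and the cause of the changes below was not tested. The scalings, the filters in the training and subregion comparisons, the pseudocount and the robust setting changed no count of members called. In the combined comparison 2 members were called, 1 without the library labelled CA3 untrained replicate 1, 0 with the sex-linked covariate, and 1 to 3 with an animal left out. In CA3 0 were called, against 1 with all 16 libraries in one fit and 0 to 2 with an animal left out. With an untrained animal left out, CA3 or DG can hold 1 untrained library, which is then assumed to vary like the others. In CA1 against DG 0 or 1 was called with an animal left out. For the interactions, 0 were called, against 1 for CA1 against DG without a filter, with the sex-linked covariate or without CA3 untrained replicate 1, 1 for CA3 against DG without that library, and 0 to 1 in each of the 3 with an animal left out. Trained and untrained mice share only a replicate number (correlations of -0.180 to 0.119 over 7 pairs). With that number as a replicate block 2 members were called in CA3, Gabra2 at -0.55 (limma adjusted p = 0.00305) and Gabra4 at -0.25 (limma adjusted p = 0.0176), Gabra5 in CA3 turned to -0.0025 and Gabrd in DG to -0.020, and the number of all genes called in CA3 rose from 118 to 1160. Blocks changed no other count of members called.

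Differences that turned their sign were never called. With the sex-linked covariate these were Gabra5 in the combined comparison (0.13), Gabrb2 in CA3 against DG (-0.0081) and Gabra2 in the interaction of CA1 and CA3 (0.031); without the library labelled CA3 untrained replicate 1 the latter pair were at -0.010 and 0.21. With animals left out, the combined difference ran from -0.036 to 0.17 for Gabra3, -0.051 to 0.013 for Gabra5 and -0.19 to 0.026 for Gabrd. It ran from -0.13 to 0.034 for Gabrd in CA1, in CA3 from -0.031 to 0.072 for Gabra5 and -0.027 to 0.072 for Gabrb1, and in DG from -0.22 to 0.034 for Gabra2, -0.064 to 0.17 for Gabra3 and -0.13 to 0.19 for Gabrd. In CA1 against CA3 it ran from -0.035 to 0.064 for Gabra4 and -0.027 to 0.016 for Gabra5, in CA3 against DG from -0.26 to 0.031 for Gabra3, -0.016 to 0.040 for Gabrb2 and -0.13 to 0.11 for Gabrd, and in the interaction of CA1 and CA3 from -0.21 to 0.14 for Gabra2. Over all genes, the number called ran over the alternatives from 0 (with the sex-linked covariate, 1702 at an unadjusted p under 0.05) to 1879 in the combined comparison (1517 as reported), 339 to 1877 in CA1 (710.0), 7 to 1160 in CA3 (118), 28 to 1583 in DG (473), 2 to 86 in CA1 against CA3 (31), 17 to 439 in CA1 against DG (286), and 0 to 1 in CA3 against DG (0). In the interactions it ran from 0 to 69 in CA1 against CA3 (4), 0 to 2039 in CA1 against DG (404) and 0 to 72 in CA3 against DG (24). Per kb of the longest transcript, the level was 171 for Gabra2, 313 for Gabra4, 605 for Gabra5 and 748 for Gabrb2.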
